A study of Mus musculus with 36 samples.

Results

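The genes described here are 6 subunit genes of the transcription factor AP-1 (Fos, Fosb, Fosl2, Jun, Junb and Jund) and 4 other immediate early genes (Egr1, Ier2, Ier5 and Dusp1). They were chosen by name, and all 10 were among the 12762 genes of the deposited mRNA-seq table. The cells were of B3, a pre-B line from the mouse that stands for a dividing stage of early B cell development. The Ikaros line carries a retroviral MSCV vector with HA-tagged wild type Ikaros fused to the ERt2 hormone-binding domain of the estrogen receptor, followed by an IRES and GFP, and the control line carries the same vector with ERt2 but no Ikaros. In the Ikaros line, 4-hydroxy-tamoxifen (4-OHT) sends the fusion protein into the nucleus. Both lines were sorted as GFP-positive pools, and both were given 0.5 uM 4-OHT at 2, 6, 12, 18 or 24 h before a common harvest. The labels list the drug for the 0 h cells too, whereas the methods of the study describe these as cells without drug that were obtained on separate occasions, so every comparison with 0 h also compares occasions. Each of the 12 groups held 3 libraries (36 in all), from culture batches 1, 2 and 4 at 0 h and batches 1, 3 and 4 later. Control and Ikaros cells of a batch were grown side by side.

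AP-1 is a dimer of basic leucine zipper proteins, made either of 2 Jun proteins or of a Jun and a Fos protein. Fos, Fosb, Jun, Egr1 and Dusp1 are textbook immediate early genes: their transcripts are scarce in resting cells, appear within minutes of a mitogen or a stress through kinase cascades acting on factors already present, and decay quickly. Junb is an immediate early gene too. Fosl2 and Jund are AP-1 subunits with slower or more constant expression, and JunD is known for restraining growth in several cell types. In B cell progenitors these genes lie downstream of signals such as those from the pre-B cell receptor and cytokines. Ikaros is a zinc finger factor that drives large pre-B cells out of cycle.

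The genes lie on 8 chromosomes of GRCm38, the build of the files (mm10), and all are protein coding. Fos (ENSMUSG00000021250) spans 85473890 to 85477273 on the forward strand of chromosome 12, Fosb (ENSMUSG00000003545) 19302696 to 19310051 on the reverse strand of chromosome 7, Fosl2 (ENSMUSG00000029135) 32135801 to 32157842 on the forward strand of chromosome 5, and Jun (ENSMUSG00000052684) 95049034 to 95052222 on the reverse strand of chromosome 4. Chromosome 8 holds Junb (ENSMUSG00000052837; 84974484 to 84978718, reverse), Jund (ENSMUSG00000071076; 70698949 to 70700616, forward) and Ier2 (ENSMUSG00000053560; 84661331 to 84662852, reverse). Egr1 (ENSMUSG00000038418) spans 34859823 to 34864984 on the forward strand of chromosome 18, Ier5 (ENSMUSG00000056708) 155096361 to 155099636 on the reverse strand of chromosome 1, and Dusp1 (ENSMUSG00000024190) 26505590 to 26562128 on the reverse strand of chromosome 17. The annotation places an antisense gene over Jun (Junos) and over Jund (Gm11175), the protein-coding Prdx2 on the strand opposite Junb, and Ergic1 opposite the long Dusp1 model. The strand setting of the counting is not given in the sources used here, so a part of the reads of these 4 genes could belong to the partner.

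Values are log2 expression after the authors' normalization for GC content, gene length and library preparation, with a constant added, so a difference of 1 is a doubling. A gene was called at a Benjamini-Hochberg adjusted p under 0.05 over all 12762 genes in a limma fit of the 12 group means, and every adjusted p below comes from that fit unless another is named. Library medians lay between 11.70 and 11.73, and no counts were used here. The study states the number of reads it aimed for, but the depth reached was not examined here. Ikzf1, the gene of Ikaros, lay between 13.95 and 14.85 in the 18 control libraries and between 19.63 and 20.93 in the 18 Ikaros libraries, 0 h included, so all libraries matched their line. Of the markers fixed for pre-B cells, 11 of 11 were in the table, with library means of 13.6 to 14.6. Of those for myeloid cells 2 of 7 were there, Lyz2 and Itgam. Their library means, which pool the 2 genes, were 4.83 to 6.79 in control cells and 6.14 to 7.91 in Ikaros cells. At 12, 18 and 24 h 1 was called higher and 1 lower in Ikaros cells (all genes 45.8%, 58.2% and 62.9%). At 0, 2 and 6 h 1 was called higher and 0 lower (8.33%, 19.1% and 37.3%). Of those for T cells 1 of 6 was there (Lck), and of those for erythroid cells and for fibroblasts 0 of 5 each. The part of these markers in the results was not tested. Fewer cells expressing a gene and less RNA per cell cannot be told apart in such bulk samples.

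Promoter windows from RefSeq, from 250 bases before to 50 after the annotated start, were found for 8 of the 10 genes and not for Egr1 and Ier2. Those of the 4 genes whose levels moved together most closely between libraries, as described further on, are shown 5′ to 3′ on the strand of the gene with positions counted from the RefSeq start, with matches to the searched motifs in capitals. Fos lies at chr12:85473640-85473939, Fosb at chr7:19309996-19310295, Jun at chr4:95052173-95052472 and Dusp1 at chr17:26508423-26508722 of GRCm38.p6.
Fos: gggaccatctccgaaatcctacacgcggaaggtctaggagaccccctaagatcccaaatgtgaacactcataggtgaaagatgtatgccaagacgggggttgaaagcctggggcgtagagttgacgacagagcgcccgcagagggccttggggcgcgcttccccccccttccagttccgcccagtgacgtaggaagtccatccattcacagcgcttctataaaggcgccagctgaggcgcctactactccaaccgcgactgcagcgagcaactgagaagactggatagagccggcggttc
Fosb: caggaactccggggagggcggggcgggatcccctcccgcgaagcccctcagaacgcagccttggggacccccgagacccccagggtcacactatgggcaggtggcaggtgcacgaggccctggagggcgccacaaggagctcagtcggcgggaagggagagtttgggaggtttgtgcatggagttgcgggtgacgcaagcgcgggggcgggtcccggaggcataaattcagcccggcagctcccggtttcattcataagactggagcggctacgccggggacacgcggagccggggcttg
Jun: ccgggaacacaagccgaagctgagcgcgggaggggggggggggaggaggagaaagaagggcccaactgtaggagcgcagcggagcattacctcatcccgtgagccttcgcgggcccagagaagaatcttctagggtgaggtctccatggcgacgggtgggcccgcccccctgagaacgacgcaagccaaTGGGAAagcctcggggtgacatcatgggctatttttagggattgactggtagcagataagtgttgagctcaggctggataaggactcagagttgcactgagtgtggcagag
Dusp1: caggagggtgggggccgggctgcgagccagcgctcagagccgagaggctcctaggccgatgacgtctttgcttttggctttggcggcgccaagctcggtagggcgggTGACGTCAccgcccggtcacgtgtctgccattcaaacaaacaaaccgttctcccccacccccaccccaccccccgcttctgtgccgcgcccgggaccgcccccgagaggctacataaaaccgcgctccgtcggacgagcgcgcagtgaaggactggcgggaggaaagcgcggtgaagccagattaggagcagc
The motifs were searched on both strands, and none of them overlapped another in these windows. The AP-1 site TGANTCA, held by 7.81% of all 32851 promoter windows, had 0 matches in the 8 windows. The cAMP response element TGACGTCA, held by 1.79% of all windows, had 1 match, from base -143 to base -136 of Dusp1. The CArG box (1.63% of all windows) and the Egr site GCGTGGGCG (0.612%) had 0 matches. TGGGAA, a core recognised by Ikaros (25.6% of all windows), matched from base -61 to base -56 of Jun and from base -187 to base -182 of Jund. The RefSeq start of Jund lies before the gene model placed above, and that of Dusp1 inside its long model. A match is a description of the letters and not a binding site. Only fixed patterns within the windows were searched, so variant sites and sites farther away would be missed.

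The 6 AP-1 genes differed widely in level. The values are adjusted for gene length, but how well they compare between genes was not tested. In control cells at 24 h the mean log2 level was 15.09 for Jund, 14.88 for Junb, 12.30 for Jun, 12.14 for Fosb, 9.13 for Fosl2 and 8.06 for Fos. The ranges over 3 libraries overlapped between Jund and Junb, between Jun and Fosb and between Fosl2 and Fos, so these neighbours in the order did not differ beyond their spread. In Ikaros cells at 24 h the order was Jund (16.56), Junb (14.55), Jun (13.64), Fosl2 (9.77), Fosb (9.10) and Fos (7.82), and here Jund, Junb and Jun were separated in every library while Fosl2, Fosb and Fos overlapped with the next. Over all 36 libraries the mean of Jund stood at the 94.2 percentile of all genes, Ier2 at the 92.9 and Junb at the 90.8, whereas Fos stood at the 9.03, Fosl2 at the 22.7 and Fosb at the 25.2. Ier5 (50.5), Jun (47.4), Egr1 (45.5) and Dusp1 (37.0) lay near the middle.

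**Figure D1:**
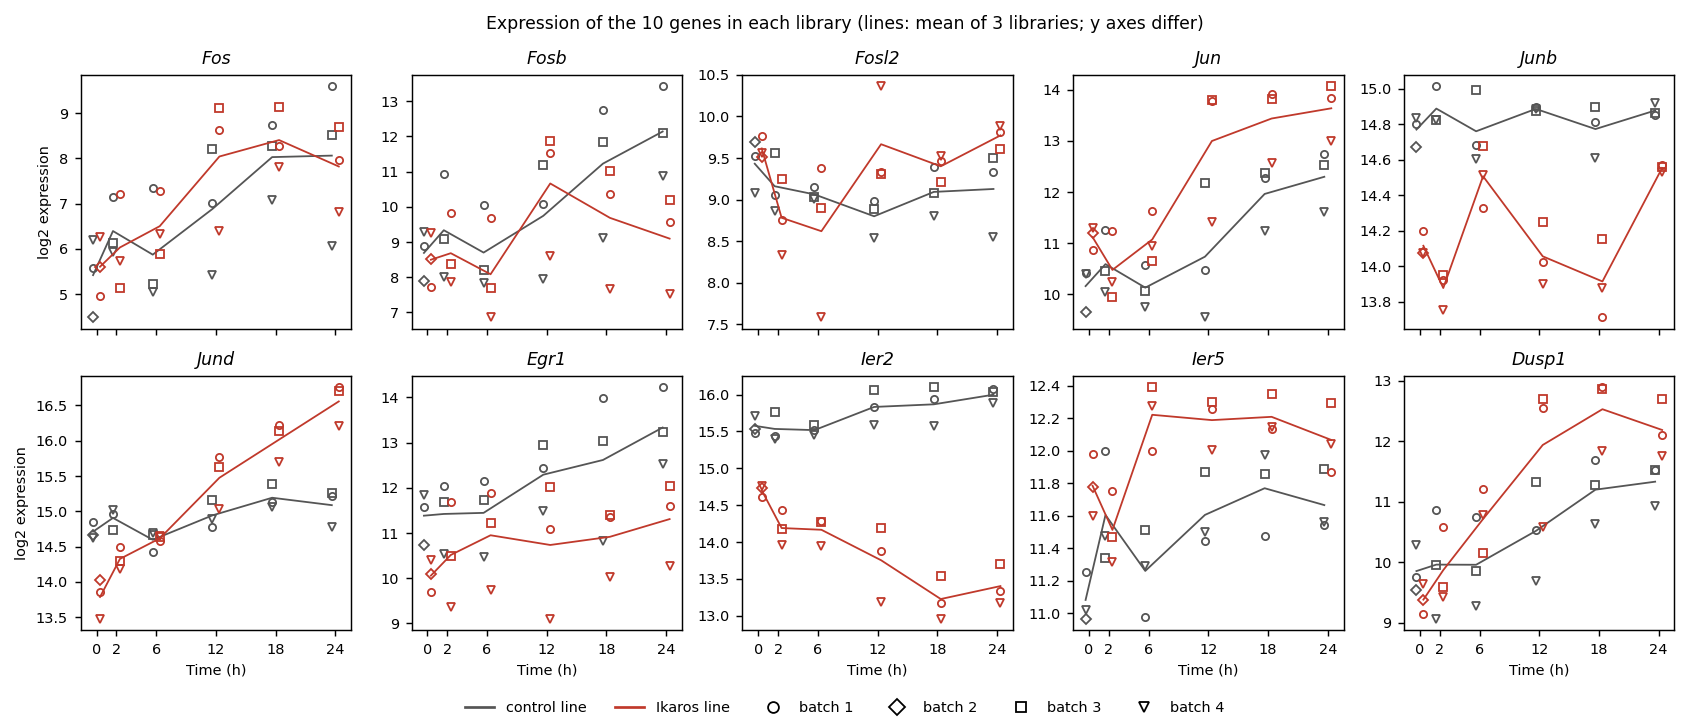
Log2 expression (y axis, a scale of its own in each panel) of the 10 genes against time in hours (x axis) in the 36 libraries. Grey is the control line and red the Ikaros line, symbols mark the culture batch, and lines join the means of 3 libraries. Jund rises and Ier2 falls in the Ikaros line, and the downward triangles of batch 4 lie lowest for Fosb and Egr1 at every time from 2 h on.

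The first question is which of the genes differed between the lines at each time. Before induction 4 of the 10 were called, 1 with a higher and 3 with a lower level in the Ikaros line, where 8.33% of all genes were called (4.61% higher and 3.72% lower). At 2 h 3 were called, 0 higher and 3 lower (all genes 19.1%; 9.18% and 9.88%), and at 6 h 2, 1 each way (37.3%; 18.1% and 19.2%). At 12 h 7 were called, 5 higher and 2 lower (45.8%; 23% and 22.8%), and at 18 h 6, 4 higher and 2 lower (58.2%; 29% and 29.2%). At 24 h 5 were called, 1 higher and 4 lower (62.9%; 31% and 31.9%). The median difference at 24 h was 0.08 for the 10 and -0.0055 for all genes. The libraries of the lines did not overlap for 6, 3, 3, 4, 6 and 8 of the 10 genes at 0, 2, 6, 12, 18 and 24 h. Over all genes these shares were 32.7%, 27.9%, 41%, 51%, 64.5% and 71%. Counts of pairs within batch and time, given below, have no all-gene share beside them, and the pairs share culture batches. With only the compared groups in the fit, 3 genes in place of 7 were called at 12 h. Batch was also fitted as a block, either with its number alone or with further blocks for the 0 h cultures (separate 0 h blocks), and these fits called 7 and 8 in place of 5 at 24 h.

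**Figure D2:**
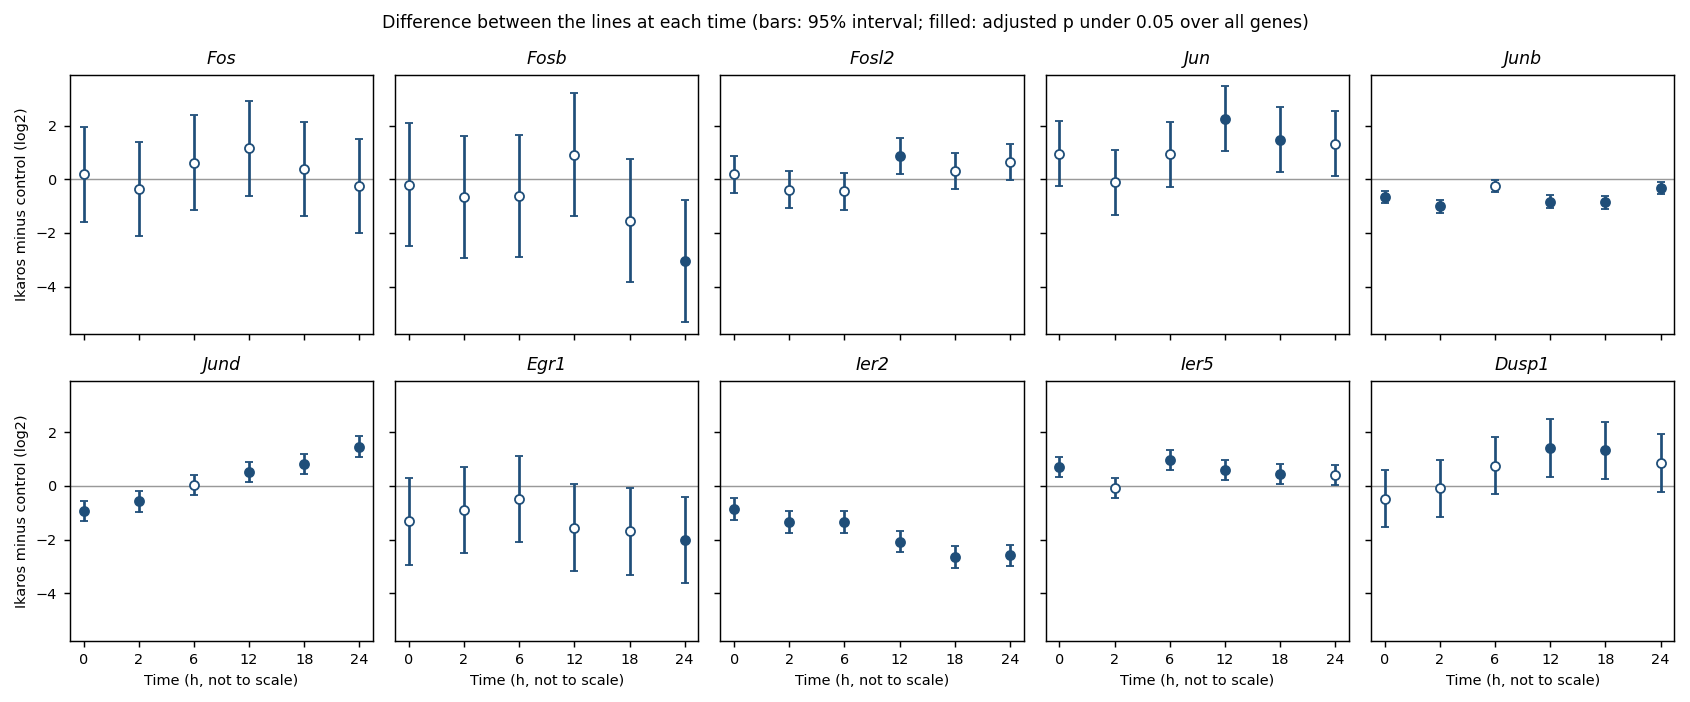
Ikaros minus control difference in log2 expression (y axis, shared by all panels) of each gene at 0, 2, 6, 12, 18 and 24 h (x axis, evenly spaced). Points are the estimates from 3 libraries per group, bars their 95% intervals, and filled points had an adjusted p under 0.05 over all genes. The Jund difference climbs from -0.93 to 1.47, that of Ier2 goes down to -2.64, and the bars of Fos, Fosb and Egr1 are the widest.

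Jund, which encodes the JunD subunit, went from lower to higher in Ikaros cells. At 0 h its levels were 14.85, 14.66 and 14.63 in control cells and 13.85, 14.03 and 13.48 in Ikaros cells (batches 1, 2 and 4). At 2 h they were 14.97, 14.74 and 15.01 against 14.49, 14.30 and 14.19 (batches 1, 3 and 4, as at all later times). At both times every Ikaros library lay below every control library. At 6 h the groups overlapped, with 14.43, 14.67 and 14.70 in control cells and 14.58, 14.63 and 14.64 in Ikaros cells. At 12 h the levels were 14.77, 15.16 and 14.90 against 15.77, 15.62 and 15.04, and at 18 h 15.13, 15.38 and 15.06 against 16.22, 16.13 and 15.70. At 24 h they were 15.21, 15.27 and 14.78 against 16.75, 16.70 and 16.21, and at 18 and 24 h every Ikaros library lay above every control library. The Ikaros minus control difference was -0.93, -0.58, 0.02, 0.53, 0.82 and 1.47 at 0, 2, 6, 12, 18 and 24 h (SE 0.18), the last a 2.77-fold excess. The adjusted p-values in the same order were 0.00104, 0.026, 0.945, 0.0188, 0.00038 and 9.32e-08. Within the 3 batches the 24 h difference was 1.54, 1.44 and 1.43.

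The limits of the Jund calls lay at the early and middle times. The call at 2 h was lost without the control library of batch 1 or 4 or the Ikaros library of batch 3 or 4 (differences of -0.57 to -0.51, adjusted p 0.0666 to 0.101). The call at 12 h was lost without the library of batch 1 in either line, without the control library of batch 4 or without the Ikaros library of batch 3 (0.39 to 0.51, adjusted p 0.0527 to 0.121).

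Within the Ikaros line Jund rose from its 0 h level by 0.54, 0.83, 1.69, 2.23 and 2.77 at 2, 6, 12, 18 and 24 h (adjusted p 0.0398, 0.000931, 2.96e-08, 8.1e-11 and 6.68e-13), a 6.82-fold rise in the end. In control cells the 24 h level was 0.38 above that at 0 h, which was not called (adjusted p 0.427). The rise at 2 h was lost without any of 5 single Ikaros libraries, namely those of batches 1 and 4 at 0 h and all 3 at 2 h (0.39 to 0.61, adjusted p 0.0638 to 0.201).

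Junb, another Jun subunit gene, was lower in Ikaros cells. Its control levels moved little, with means between 14.76 and 14.89 over the 6 times. In Ikaros cells the 3 libraries held 14.20, 14.07 and 14.07 at 0 h, 13.92, 13.95 and 13.75 at 2 h and 14.33, 14.68 and 14.51 at 6 h. They then held 14.02, 14.25 and 13.90 at 12 h, 13.71, 14.15 and 13.88 at 18 h, and 14.57, 14.56 and 14.53 at 24 h. The level thus came near that of control cells at 6 and 24 h and lay clearly below at the other times, and the groups overlapped only at 6 h. The difference was -0.65, -1.01, -0.25, -0.83, -0.86 and -0.32 over the 6 times (SE 0.11), with adjusted p of 0.00023, 2.26e-07, 0.0818, 1.05e-06, 3.37e-07 and 0.0154. In all 18 pairs of libraries of the same batch and time Junb was lower in the Ikaros line, by 0.09 at the least. The 6 h difference was called too with batch as a block (adjusted p 0.0407). The control level at 24 h was 0.11 above that at 0 h and was not called (adjusted p 0.738).

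Jun, the founding member of the Jun group, was higher in Ikaros cells at 12 and 18 h. At 12 h its levels were 10.48, 12.18 and 9.56 in control cells and 13.77, 13.80 and 11.42 in Ikaros cells (batches 1, 3 and 4). At 18 h they were 12.27, 12.38 and 11.25 against 13.92, 13.83 and 12.56, and at 24 h 12.75, 12.53 and 11.62 against 13.83, 14.07 and 13.01. Batch 4 was low in both lines at 12 h. The groups overlapped at 2 and 12 h and were separated at 0, 6, 18 and 24 h. The difference was 2.26 at 12 h (SE 0.59 throughout; adjusted p 0.00259), 1.47 at 18 h (0.0347) and 1.34 at 24 h (0.0508), and within batches it ran from 1.62 to 3.29, from 1.32 to 1.65 and from 1.08 to 1.54. At 0, 2 and 6 h it was 0.96, -0.11 and 0.94 and was not called (adjusted p 0.413, 0.928 and 0.219). At 0 and 6 h it was positive in all 3 batches, from 0.44 to 1.54 and from 0.58 to 1.20. The change of the difference from 0 h to 12, 18 or 24 h was not called (adjusted p 0.258, 0.649 and 0.734). The 24 h difference was called with batch as a block (adjusted p 0.0151). The 12 h call was lost with only the compared groups in the fit (adjusted p 0.102) and without replicate 1 of all groups (0.114). The 18 h call was lost without the control library of batch 4 or the Ikaros library of batch 1 or 3 (1.11 to 1.28, adjusted p 0.11 to 0.155).

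The Fos group gave few calls. Fos itself, the best known partner of Jun, was called at 0 of the 6 times in either direction, at 0 of 6 also by unadjusted p under 0.05, with differences from -0.36 to 1.16 (SE 0.86). Fosb, which encodes a close relative of Fos, was lower in Ikaros cells at 24 h: the levels were 13.43, 12.11 and 10.88 in control cells and 9.57, 10.20 and 7.52 in Ikaros cells, with no overlap. The difference was -3.04 (SE 1.11, adjusted p 0.0197), an 8.23-fold lower level, and it was -3.86, -1.91 and -3.35 within batches 1, 3 and 4. At 18 h it was -1.54 and was called only with separate 0 h blocks (adjusted p 0.0223, against 0.0934 with batch as a block and 0.24 without), and at 0, 2, 6 and 12 h it lay between -0.65 and 0.92 with no call. Fosl2, which encodes Fra-2, was higher in Ikaros cells at 12 h, with 8.98, 8.88 and 8.53 against 9.33, 9.30 and 10.37 (difference 0.87, SE 0.33, adjusted p 0.035). At the other times its difference lay between -0.44 and 0.65 and was not called.

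These Fos group calls rested on single libraries. The Fosb call at 24 h was lost without the control library of batch 1 or the Ikaros library of batch 4 (-2.40 and -2.25, adjusted p 0.0977 and 0.117). The Fosl2 call at 12 h was lost without the control library of batch 3 or 4 or the Ikaros library of batch 4, which stood apart at 10.37 (0.52 to 0.91, adjusted p 0.0583 to 0.248).

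Ier2, a nuclear immediate early response gene, was lower in Ikaros cells and was the only one of the 10 called at all 6 times. Control levels were 15.48, 15.54 and 15.71 at 0 h and 16.07, 16.04 and 15.88 at 24 h. Ikaros levels were 14.61, 14.74 and 14.76 at 0 h, 14.44, 14.18 and 13.95 at 2 h, and 14.28, 14.27 and 13.95 at 6 h. They went on to 13.88, 14.19 and 13.19 at 12 h, 13.17, 13.55 and 12.96 at 18 h, and 13.33, 13.70 and 13.18 at 24 h. The groups did not overlap at any time, and Ier2 was lower in the Ikaros line in 18 of 18 pairs within batch and time, by 0.80 to 2.76. The difference was -0.87, -1.34, -1.35, -2.08, -2.64 and -2.59 over the 6 times (SE 0.20), a 6.04-fold lower level at the end. The adjusted p-values were 0.00399, 1.38e-05, 5.66e-06, 2.27e-09, 1.1e-11 and 9.67e-12. Against its own 0 h level Ier2 in the Ikaros line fell by 0.53, 0.95, 1.47 and 1.30 at 6, 12, 18 and 24 h (adjusted p 0.0386, 0.0003, 4.77e-07 and 2.51e-06), whereas the control level at 24 h was 0.42 above that at 0 h without a call (0.411). A fall of 0.61 at 2 h was called as well with batch as a block (adjusted p 0.00551), against an uncalled fall of 0.51 without it (0.0676). This block takes batches 1 and 4 at 0 h as the same as later, although the 0 h cells were obtained on separate occasions. The fall at 6 h was lost without any of the 3 Ikaros libraries at 0 h or those of batches 3 and 4 at 6 h (-0.59 to -0.42, adjusted p 0.0527 to 0.171).

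Egr1, a zinc finger factor induced by growth signals, had the lower level in the Ikaros line in 18 of 18 pairs within batch and time, by 0.25 to 2.64, but was called at 24 h only. At 24 h the levels were 14.22, 13.24 and 12.53 in control cells and 11.60, 12.05 and 10.28 in Ikaros cells. The difference was -2.02 (SE 0.78 throughout; adjusted p 0.0268), a 4.07-fold lower level, and the groups did not overlap. At 0, 2, 6, 12 and 18 h it was -1.33, -0.91, -0.50, -1.55 and -1.70, with adjusted p of 0.388, 0.483, 0.653, 0.109 and 0.0653. The differences at 12 and 18 h were called with batch as a block (adjusted p 0.013 and 0.00542), and that at 0 h only with separate 0 h blocks (0.0172 against 0.102). The 24 h call was lost without the control library of batch 1 or the Ikaros library of batch 4 (-1.58 and -1.51, adjusted p 0.121 and 0.138). The 18 h difference was called without the control library of batch 4.

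Ier5, an immediate early gene of a family related to Ier2, was higher in Ikaros cells at 0, 6, 12 and 18 h. At 6 h the levels were 10.98, 11.51 and 11.29 in control cells and 12.00, 12.39 and 12.28 in Ikaros cells, with no overlap. The difference was 0.70, 0.96, 0.58 and 0.44 at these times (SE 0.18; adjusted p 0.0114, 0.000133, 0.00923 and 0.0379). At 2 h it was -0.09 (0.785) and at 24 h 0.40 (0.0537), and with batch as a block that at 24 h was called (0.044). The 0 h call was lost without the control library of batch 2 or 4 or the Ikaros library of batch 1 (0.61 to 0.67, adjusted p 0.0511 to 0.0812), and the 18 h call without the control library of batch 1 or any of the 3 Ikaros libraries (0.29 to 0.48, adjusted p 0.0509 to 0.203).

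Dusp1, which encodes a phosphatase that switches off MAP kinases, was higher in Ikaros cells at 12 and 18 h. At 12 h the levels were 10.54, 11.33 and 9.69 against 12.55, 12.70 and 10.58, and at 18 h 11.69, 11.28 and 10.63 against 12.89, 12.87 and 11.84. Within each batch the Ikaros library was the higher at both times, while the groups overlapped at 12 h through batch 4. The difference was 1.42 at 12 h (SE 0.52 throughout; adjusted p 0.0277), 1.33 at 18 h (0.0314) and 0.85 at 24 h (0.157), the last called only with separate 0 h blocks (0.0375, against 0.0804 with batch as a block). At 0, 2 and 6 h it was -0.47, -0.09 and 0.76 without a call. The 12 h call was lost without the library of batch 1 in either line, the control library of batch 4 or the Ikaros library of batch 3 (1.01 to 1.43, adjusted p 0.0556 to 0.162), and the 18 h call without the control library of batch 3 or 4 or the Ikaros library of batch 1 or 3 (1.04 to 1.37, adjusted p 0.0548 to 0.134).

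Whether the difference between the lines changed after induction was tested as the change of that difference from 0 h. From 0 h to 2 h 0 of the 10 genes were called by limma (all genes 3.1%), and 2 had an unadjusted p under 0.05 (all genes 12.9%). To 6 h 1 gene was called (15.9%), to 12 h 2 (29.7%), to 18 h 2 (43%) and to 24 h 2 (48.4%). These were Jund and Ier2 in opposite directions: the Jund difference rose by 0.94, 1.46, 1.75 and 2.39 from 0 h to 6, 12, 18 and 24 h (SE 0.26, adjusted p 0.0122, 9.7e-05, 4.25e-06 and 1.99e-08), and the Ier2 difference fell by 1.20, 1.76 and 1.72 to 12, 18 and 24 h (SE 0.28, adjusted p 0.00163, 1.05e-05 and 1.1e-05). The calls lost when 1 replicate was left out of all groups were that of Jund to 6 h, without replicate 1 or 2 (0.84 and 1.12, adjusted p 0.19 and 0.101), and that of Ier2 to 12 h, without replicate 1 (-1.26, adjusted p 0.0597). With batch as a block, 4 genes in place of 2 were called for the change to 24 h, the added ones being Fosb (-2.85, adjusted p 0.0355) and Junb (0.33, 0.0492). With separate 0 h blocks 4 were called as well, the added ones being Fosb (0.00475) and Dusp1 (1.33, 0.0293). Dusp1 was called for the changes to 12 and 18 h with batch as a block (1.89 and 1.80, adjusted p 0.0169 and 0.0163, against 0.0538 and 0.0506 without it), and Junb for that to 6 h (0.40, adjusted p 0.0426 against 0.0918).

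The change from 2 h to 24 h uses no 0 h library, and 3 genes were called for it (47.3% of all genes). The Jund difference rose by 2.05 (SE 0.26, adjusted p 3.17e-07), the Junb difference by 0.69 (SE 0.16, adjusted p 0.000935), and the Ier2 difference fell by 1.25 (SE 0.28, adjusted p 0.000578). The Ier2 call was lost without replicate 1 (-1.01, adjusted p 0.0903). Batch as a block left the count at 3, and separate 0 h blocks added Fosb (-2.39, adjusted p 0.016) and Jun (1.45, adjusted p 0.0488). An F test (moderated) of all 5 changes since 0 h called 4 of the 10 (59.8% of all genes): Jund (adjusted p 6.81e-08), Ier2 (7.62e-06), Junb (0.000719) and Ier5 (0.0182). Batch as a block added Dusp1 (adjusted p 0.0367), and separate 0 h blocks added Fosb (0.00404), Jun (0.0341) and Dusp1 (0.00881).

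The time courses within each line used the same 0 h groups. In the Ikaros line 1, 4, 5, 6 and 6 genes were called against 0 h at 2, 6, 12, 18 and 24 h, where 19.2%, 32.8%, 46.1%, 54.6% and 60.6% of all genes were called. In the control line limma called 0 of the 10 at each of these times, and of all genes 0.047%, 5.1%, 0.0549%, 0.478% and 0.47%. By unadjusted p under 0.05 the control line held 1, 0, 1, 6 and 7 of the 10 at these times, where all genes gave 7.88%, 28.1%, 5.7%, 14.9% and 11.7%. At 24 h the control libraries lay wholly beyond those at 0 h for 7 of the 10 genes and for 25.3% of all genes. Of the 10, 9 had a positive difference (median 1.03, all genes 0.0124). Several of these genes moved together between libraries, so their signs are not independent.

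Dusp1, Jun and Fos were called as rising in the Ikaros line and had positive, uncalled differences in the control line. The adjusted threshold was harder to pass in the control line, where 0.47% of all genes were called at 24 h against 60.6%. For Fos the limma estimate at 24 h was the larger in control cells, 2.64 (unadjusted p 0.00479) against 2.22 (0.0156), with the same SE. Dusp1 in Ikaros cells rose from 9.14, 9.38 and 9.64 at 0 h (batches 1, 2 and 4) to 12.10, 12.70 and 11.77 at 24 h (batches 1, 3 and 4), a rise of 2.80 (SE 0.52, adjusted p 4.34e-05), after 2.56 at 12 h (0.000246) and 3.15 at 18 h (1.19e-05). Jun rose by 1.88 at 12 h (adjusted p 0.011), 2.31 at 18 h (0.00166) and 2.51 at 24 h (0.000625), and Fos by 2.44, 2.80 and 2.22 (0.0217, 0.00725 and 0.0277). In control cells the 24 h level of Fosb was 3.45 above 0 h (SE 1.11, adjusted p 0.207), of Fos 2.64 (0.86, 0.21), of Jun 2.13 (0.59, 0.113), of Egr1 1.95 (0.78, 0.324) and of Dusp1 1.48 (0.52, 0.249). In Ikaros cells that of Fosb was 0.60 (adjusted p 0.66) and that of Egr1 1.25 (0.171), neither called. Each of the 5 in control cells differed from 0 by more than its 95% interval but missed the threshold over all genes. The control difference was 0.58 for Ier5 (adjusted p 0.173) and -0.30 for Fosl2 (0.75). The 12 h rise of Jun was lost without the Ikaros library of batch 1 or 3 at 12 h (1.47 and 1.49, adjusted p 0.0673 and 0.0675), and the 12 and 24 h rises of Fos without any of 4 libraries, those of batches 1 and 2 at 0 h and of batches 1 and 3 at the later time (adjusted p 0.0504 to 0.106 and 0.0572 to 0.116).

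Smaller changes were called in the Ikaros line for 3 more genes. Junb rose by 0.39 at 6 h (adjusted p 0.00936) and 0.44 at 24 h (0.00163), Ier5 rose by 0.42 at 18 h (0.0476), and Fosl2 fell by 1.00 at 6 h (0.023). The Junb rise at 6 h was lost without the Ikaros library of batch 3 (0.31, adjusted p 0.0681). The Fosl2 fall was lost without the batch 1 library at 0 h or the batch 4 library at 6 h (-0.92 and -0.48, adjusted p 0.0729 and 0.273). The Ier5 rise was lost without the 0 h library of batch 2 or 4 or any library at 18 h (0.33 to 0.46, adjusted p 0.0627 to 0.177) and with batch as a block (0.33, adjusted p 0.128). With batch as a block Junb was also called at 2 and 18 h (-0.32 and -0.28, adjusted p 0.0258 and 0.0253) and Dusp1 at 6 h (1.16, adjusted p 0.0476). Without the block these differences were -0.24, -0.20 and 1.33. The block takes batches 1 and 4 at 0 h as the same as later, although the 0 h cells were obtained on separate occasions. It may therefore shift comparisons with 0 h within a line, and separate 0 h blocks gave no estimate for them.

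The spread between replicate libraries differed widely among the 10 genes. The residual SD about the group means was 1.42 for Fosb, at the 99.9 percentile of all genes, 1.09 for Fos (99.1), 1.00 for Egr1 (98.4), 0.75 for Jun (93.4) and 0.66 for Dusp1 (89.9), against a median of 0.225 over all genes. It was 0.42 for Fosl2 (76.2 percentile), 0.25 for Ier2 (54.9), 0.23 for Jund (50.3), 0.22 for Ier5 (49.2) and 0.13 for Junb (15.6). The 5 genes of large spread deviated together: over the 36 libraries the within-group deviations correlated at r = 0.93 between Fosb and Egr1, 0.93 between Jun and Dusp1, 0.90 between Fosb and each of Jun and Dusp1, and 0.89 between Fos and Fosb. Ier2, of ordinary spread, deviated with them too (0.82 with Egr1, 0.76 with Fosb and with Jun), and Jund did so with Jun (0.65). Between Fosl2 and Fos r was 0.02 and between Ier5 and Fosb 0.10. These points share libraries and culture batches, and r is given as a description.

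The deviations followed the culture batch. At 24 h Fosb held 13.43, 12.11 and 10.88 in control cells and 9.57, 10.20 and 7.52 in Ikaros cells from batches 1, 3 and 4, and at 2 h 10.92, 9.09 and 8.00 against 9.81, 8.38 and 7.86. Batch 4 gave the lowest of the 3 libraries in 10 of the 10 groups from 2 h on for Fosb, Egr1 and Ier2, in 9 for Dusp1, in 8 for Fos and Jun, in 7 for Fosl2, in 6 for Junb and Jund and in 2 for Ier5, where over all genes this share was 37.4%. At 0 h batch 4 gave the highest of the 3 libraries for Fosb, Fos, Egr1, Ier2 and Dusp1 in both lines. It gave the lowest for Jund in both lines. It was also lowest for Fosl2 in control cells, for Ier5 in Ikaros cells and, barely, for Junb in Ikaros cells (14.0732 against 14.0736 in batch 2).

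A comparison of batches over the 30 libraries from 2 h on, chosen after the values were seen, called 7 of the 10 genes for batch 4 against the mean of batches 1 and 3, 0 higher and 7 lower, where 40.7% of all genes were called (21.1% higher and 19.6% lower). In batch 4 Fosb was lower by 2.26 on the log2 scale (4.80-fold; SE 0.27, adjusted p 5.75e-05), a size at the 99.976 percentile of all genes. Egr1 was 3.20-fold lower (adjusted p 3.24e-05), Fos 2.66-fold (0.00127), Jun 2.06-fold (0.000903) and Dusp1 1.91-fold (0.000576). Ier2 (1.28-fold, 0.000368) and Jund (1.17-fold, 0.025) were lower by less, and Fosl2, Junb and Ier5 were not called (0.14, 0.105 and 0.481). Between batches 3 and 1 limma called 0 of the 10 (0.243% of all genes). Of the other immediate early genes 17 of 26 were lower in batch 4 and 0 higher, among them Sik1 by 0.90 and Zfp36 by 0.85 on the log2 scale. Of 10 other AP-1 subunits and partners 1 was lower and 1 higher (median -0.02). Of 18 upstream kinases and serum response factors 8 were lower and 1 higher. Of 8 heat shock genes 5 were lower and 0 higher, and of 11 pre-B cell markers 2 were lower and 3 higher. With batch as a block the residual SD of Fosb went from 1.42 to 1.01, that of Egr1 from 1.00 to 0.64 and that of Ier2 from 0.25 to 0.17, while that of Fosl2 went from 0.42 to 0.41. With separate 0 h blocks these were 0.73, 0.46, 0.15 and 0.42.

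**Figure D3:**
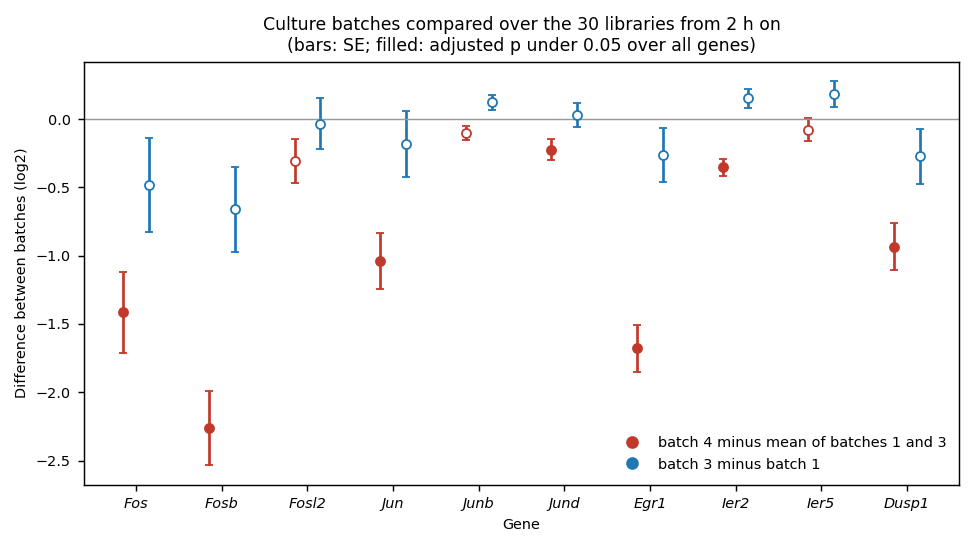
Difference in log2 expression between culture batches (y axis) for the 10 genes (x axis), over the 30 libraries of both lines from 2 h on. Red compares batch 4 with the mean of batches 1 and 3 and blue batch 3 with batch 1; bars are SE and filled points had an adjusted p under 0.05 over all genes. Red points of Fosb, Egr1, Fos, Jun and Dusp1 lie near -1 or below, and no blue point is filled.

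The surroundings of these genes were described by lists fixed with earlier results of these data known. Of 14 other AP-1 subunits and leucine zipper partners 10 were in the table, and at 24 h 3 were higher and 5 lower in Ikaros cells (median difference -0.31), where 31% of all genes were higher and 31.9% lower. Atf3, a stress-induced relative of Fos and Jun, had means of 10.48 in control and 6.01 in Ikaros cells (difference -4.47, SE 0.58, adjusted p 2.11e-07). Maff, a small Maf protein gene, was lower by 2.82 (SE 0.23, adjusted p 5.23e-11) and Jdp2, a Jun dimerization partner, by 2.14 (SE 0.26, adjusted p 5.18e-08), all 3 on the log2 scale. Crem was higher by 1.36 (adjusted p 2.71e-05), Atf7 by 1.24 (0.00675) and Mafk by 0.93 (0.00125). Atf7 had another entry among the genes, whose difference is not given here.

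Other immediate early genes moved both ways. Of 32 listed 26 were in the table, and at 2 h 2 were higher and 8 lower (all genes 9.18% and 9.88%), and at 24 h 12 were higher and 9 lower (31% and 31.9%; median difference 0.30). Gadd45b, a stress and growth arrest gene, was higher in Ikaros cells at 24 h, with means of 9.88 in control and 15.10 in Ikaros cells (difference 5.23, SE 0.22, adjusted p 1.29e-16), followed by the antiproliferative gene Btg2 (3.52, adjusted p 6.22e-09) and the zinc finger gene Klf6 (2.72, adjusted p 7.96e-09). The kinase gene Plk3 was lower by 3.81 (adjusted p 1.65e-14), Ier3 by 3.02 (3.91e-11) and Myc, the growth regulator, by 2.52 (5.99e-13). These lists had members of both directions, as did the 10 genes described here.

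Of 18 upstream kinases and serum response factors all were in the table, and at 24 h 9 were higher and 3 lower (median difference 0.25). That is 12 called where 62.9% of all genes were called (31% higher and 31.9% lower). The ETS factors Elk3 and Elk4, partners of serum response factor, were higher by 1.50 and 1.12 (adjusted p 2e-09 and 1.59e-06) and Mapk3, which encodes ERK1, by 0.60 (2.38e-06). Nab2 and Nab1, corepressors of Egr1, were lower by 2.74 and 0.52 (adjusted p 6.01e-13 and 2.66e-05), and Mapk14, which encodes p38, by 0.95 (9.61e-09). Of the heat shock list 8 of 10 were in the table, 2 higher and 4 lower at 24 h (all genes 31% and 31.9%; median difference -0.61).

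**Figure D4:**
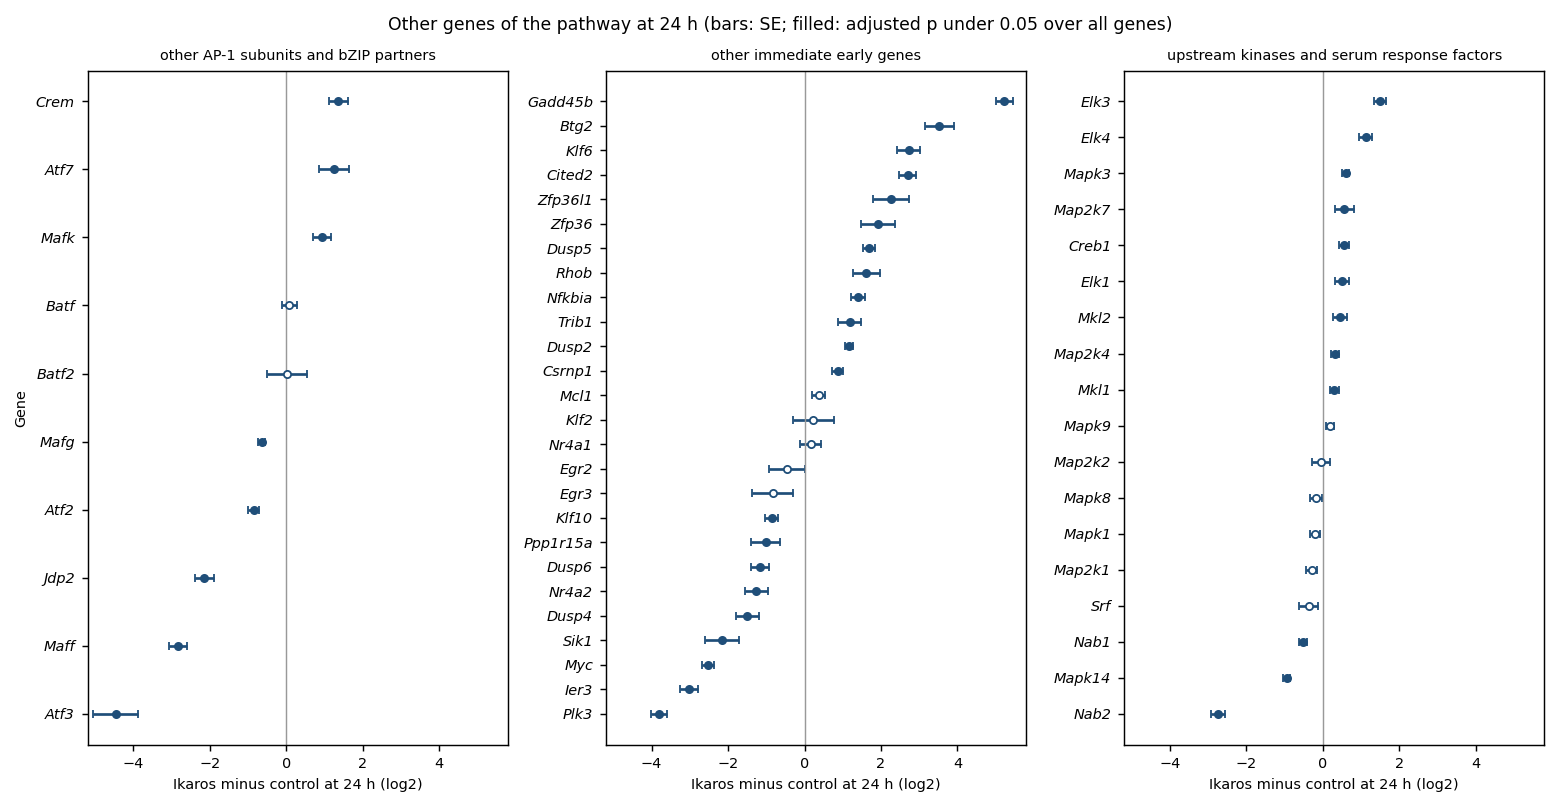
Ikaros minus control difference in log2 expression at 24 h (x axis) for the listed genes of the table (y axis, sorted), in panels for other AP-1 subunits and partners (10 genes), other immediate early genes (26) and upstream factors (18). Points are estimates from 3 libraries per group, bars are SE, and filled points had an adjusted p under 0.05 over all genes. Gadd45b at 5.23 and Atf3 at -4.47 lie farthest out.

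For the 4 genes called in the F test, the genes of the table most like them were found by Pearson correlation over the 12 group means, a description over points that share batches. Nearest to Jund were Fgd6 (r = 0.98), Nedd4l (0.97) and Adrbk1 (0.97), and nearest to Ier2 were Gnat2, Relt and Slc16a5 (0.99 each). Nearest to Junb were Stard4 (0.92), Armc7 (0.91) and Lix1 (0.90), and nearest to Ier5 Myadml2 (0.90), Tnfaip8l1 (0.89) and Tbc1d1 (0.87). Among the 10 genes themselves the closest over the group means were Jun and Dusp1 (0.93) and Fos and Dusp1 (0.93), and the most opposed were Ier2 and Ier5 (-0.71).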

How the data were processed

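Stranded mRNA-seq libraries were made from total RNA of control and Ikaros B3 cells. The authors trimmed the reads, aligned them to mm10 with TopHat2 keeping a unique best hit, counted them per gene with HTSeq, normalized for GC content and gene length with cqn and removed effects of library preparation by non-parametric ComBat. What was deposited is a table of log2 values, taken as such because cqn returns log2 and the table states no base, with a constant added so that the lowest value is 1. An adjustment made before deposition hides variation, so standard errors may be too small, and no interval for counting error can be given without counts.

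All 36 library columns were mapped to samples by name, and 0 were left over. Any 2 libraries had at most 0.384% of values in common. Groups came from the labels. Means of the 12 groups were fitted on all 12762 genes by lmFit, contrasts.fit and eBayes of limma 3.58.1 (R 4.3.3), and p-values are two-sided and Benjamini-Hochberg adjusted over all genes. The fit was tested on simulated data. Gene models came from GENCODE mouse release M21 on GRCm38, in which 98.7% of identifiers were found, and figures were drawn with matplotlib 3.10.9.

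The members and the lists were chosen with earlier results of these data known. Besides the 10 members and Ikzf1, genes were named as the 3 largest rises and 3 largest falls called at 24 h in each of 3 lists, and as the 3 genes most correlated with each member called in the F test. Sik1 and Zfp36 were named after their values were seen. The lists were other AP-1 subunits and partners, other immediate early genes, upstream kinases and serum response factors, heat shock genes and markers of 5 cell types.

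Control and Ikaros cultures of a batch share its number in the labels, which pairs them. Deviations of paired libraries from their group means correlated across genes at -0.06 to 0.51 over 18 pairs (median 0.13), above 0.1 in 12. The alternatives were a batch block with or without separate 0 h blocks, a filter that left 9571 genes (mean level not below percentile 25), quantile normalization, eBayes with a trend and robustness, separate fits for the groups compared, and leaving out each replicate or library. The comparison of batches was added after the data were seen.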

Additional observations from a re-analysis of the deposited data

Results flagged for a closer look

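Jund and Ier2 were flagged because the difference between the lines itself changed between times, in a test of that change. Such a change was common over all genes. Of the 10 genes 1, 2, 2 and 2 were called from 0 h to 6, 12, 18 and 24 h. Of all genes 15.9%, 29.7%, 43% and 48.4% were called. From 2 h to 24 h 3 of the 10 were called (47.3% of all genes). For Jund the Ikaros minus control difference (log2) rose from 0 h by 0.94 to 6 h (adjusted p 0.0122), 1.46 to 12 h (9.7e-05), 1.75 to 18 h (4.25e-06) and 2.39 to 24 h (1.99e-08), and by 2.05 from 2 h to 24 h (3.17e-07). For Ier2 it fell by 1.20 to 12 h (adjusted p 0.00163), fell by 1.76 to 18 h (1.05e-05), fell by 1.72 to 24 h (1.1e-05), and fell by 1.25 from 2 h to 24 h (0.000578). For Junb it rose by 0.69 from 2 h to 24 h (adjusted p 0.000935). The call of Jund to 6 h was lost without replicate 1 or 2 (adjusted p 0.19 and 0.101), and those of Ier2 to 12 h and from 2 h to 24 h without replicate 1 (0.0597 and 0.0903). All p-values are from limma over 12762 genes, and the cause was not tested. With 3 libraries per group no library was examined as an outlier of its group.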

How the results depend on the processing

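Of 59 called values of single genes, 31 stayed called in all alternatives run for them, among them Ier2 from 2 h on, Junb at 0, 2, 12 and 18 h, Jund at 18 and 24 h and Ier5 at 6 h between the lines. Of 220 values of single genes over all comparisons, 51 changed sign under some alternative, none of them called, and 7 did so with no library left out, all in the time courses. Of the 60 differences between the lines 13 changed sign, each when replicates were left out: at 0 h Fos (-0.28 to 0.58) and Fosb (-0.60 to 0.30), at 2 h Fos (-0.95 to 0.083), Fosb (-1.32 to 0.14), Jun (-0.49 to 0.22), Ier5 (-0.22 to 0.11) and Dusp1 (-0.54 to 0.36), at 6 h Fosb (-1.42 to 0.0595), Fosl2 (-0.82 to 0.075), Jund (-0.066 to 0.069) and Egr1 (-0.98 to 0.11), at 18 h Fos (-0.10 to 0.80) and at 24 h Fos (-1.24 to 0.53). The calls of Jund and Ier2 at 0 h were lost without batch 1 in both lines (adjusted p 0.0745 and 0.187), and that of Junb at 24 h without batch 1 or batch 4 (0.0833 and 0.101). The number of the 10 genes called changed by over 1.5 times as follows. With the replicate block it was 2 in place of 1 for the change to 6 h, 4 in place of 2 for that to 24 h and 3 in place of 1 for Ikaros cells at 2 h. With separate 0 h blocks it was 8 in place of 5 for the lines at 24 h, 2 in place of 1 and 4 in place of 2 for the changes to 6 and 24 h, 5 in place of 3 for that from 2 h to 24 h, and 7 in place of 4 in the F test. With batch as a block 1 call was ended, that of Ier5 at 18 h in Ikaros cells, and the calls that either block fit added stand in the report. With only the compared groups it was 3 in place of 7 at 12 h, 4 in place of 2 for the change to 24 h and 0 in place of 1 for Ikaros cells at 2 h. When replicates were left out the count between the lines ran from 2 to 4 at 0 h, 3 to 6 at 12 h, 3 to 6 at 18 h and 3 to 6 at 24 h, for the change from 0 to 2 at 6 h, 1 to 4 at 12 h and 2 to 2 at 24 h, and in Ikaros cells from 0 to 1 at 2 h, 1 to 5 at 6 h and 3 to 7 at 12 h. It ran from 0 to 1 in control cells at 18 and 24 h and from 2 to 6 in the F test. Under the filter Fos and Fosl2 were not tested. The depth reached was not examined.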
